A study of Drosophila melanogaster with 4 samples.

Results

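The mitochondrial ribosomal protein genes of Drosophila melanogaster were followed in ovarian tissue with and without a genetically driven tumor. Members were all deposited genes whose FlyBase symbol starts with mRpL or mRpS and a number. The rule gave 72 of 17773 listed genes, of which 47 encode proteins named for the large subunit and 25 proteins named for the small subunit. Adult females of 2 genotypes were kept for 20 days at 29 °C, with 2 libraries per genotype. Both genotypes carried the tj-GAL4 driver, which drives expression in somatic follicle cells, and tubulinGal80ts, a repressor of GAL4 that loses activity at the warm temperature. The control group had these elements alone. The tumor group carried in addition UAS-aPKCΔN, a form of an atypical protein kinase C that lacks its N-terminal part, and UAS-RasV12, an oncogenic Ras. Control tissue was restricted by dissection to follicles before yolk uptake, whereas tumors were dissected as such. A protease from Bacillus licheniformis freed the cells, and filtering favoured those of the follicle epithelium. The series description calls the libraries biological replicates, but how many animals each pooled is not given in the sources used here.

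The mitochondrial ribosome is a separate ribosome inside the organelle. It makes the few proteins that the mitochondrial genome encodes, which are core subunits of the respiratory chain and of the ATP synthase. Its ribosomal RNAs come from the mitochondrial genome, while all of its proteins are encoded in the nucleus, made in the cytoplasm and imported. Some of these proteins have counterparts in bacterial ribosomes and others are found in mitochondria alone. In flies, loss of mitochondrial ribosomal proteins slows growth and development.

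Totals of estimated counts were 41248098 for control 1, 50971937 for control 2, 47512735 for tumor 1 and 42739528 for tumor 2. These are reads that the quantifier kallisto divided among gene targets. Counts of both genes carried by the transgenes were higher in both tumor libraries, with 1910 and 2482 against 54944 and 73836 for aPKC and 676 and 215 against 102550 and 109225 for Ras85D. Control libraries held 15641 and 21837 counts of the follicle marker tj, and tumor libraries 13558 and 11159.

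How the members were quantified bears on every value below. For 99.3% of the annotated genes, and for all 72 members, the length of the deposited target equals the annotated span plus 4000 bases, read here as 2000 bases on each side. The members are short genes with close neighbours. Their median span in the BDGP6.54 annotation was 885 bases against 2161 bases for 13867 protein-coding genes, and 43 of the 72 (59.7%) overlapped another gene against 46.9% of protein-coding genes. Among members that overlapped none, the median gap to the nearest gene was 90 bases, against 237 bases. Every exon base of all 72 members therefore also lay in the target of at least 1 other gene, which held for 63% of protein-coding genes. Each member shared its exons with 2 to 5 other targets, and no single exon base assigned a read to a member alone. Whether whole reads that span several stretches could do so was not examined.

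Of the 72 members, 18 were listed at 0 in every library. These were mRpL10, mRpL13, mRpL17, mRpL18, mRpL20, mRpL32, mRpL40, mRpL41, mRpL42, mRpL44, mRpL47, mRpL48, mRpL50, mRpL53, mRpS10, mRpS18B, mRpS24 and mRpS34. Estimates under 0.5 are read as 0 throughout. The share of 25% compares with 24% of all protein-coding genes and 34.1% of those without an exon base of their own. A value of 0 here says only that the target is listed at 0. The targets that hold exons of these 18 genes, added together, had 1900 to 137429 counts in each library. Such a sum over all targets that hold an exon of a gene is called a locus sum from here on. A further 4 members had at most 22 counts in any library and were not tested either, namely mRpL30, mRpL35, mRpL52 and mRpS21. The number of members at 0 was 21 in each control library, 30 in tumor 1 and 29 in tumor 2.

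The remaining 50 members, 30 of the large and 20 of the small subunit, passed the filter on low counts and were tested together with all other genes. One gene, mRpL45, rose in tumor and 19 fell, while 30 did not pass an adjusted p of 0.05 (edgeR quasi-likelihood test, 2 libraries per group). Among all 9402 genes tested, 23.4% were higher and 21.2% lower in tumor, against 2% and 38% of the tested members. Without the 7 tested members at 0 in both tumor libraries, 12 of 43 were lower, or 27.9%, with a median log2 fold change of -0.30. These 12 include mRpL49, with 4 and 0 tumor counts. The share of all genes after the same omission was not computed. With a filter of at least 1 CPM in every library, 32.4% of tested members were lower and 5.41% higher, against 22.8% and 24.9% of all tested genes. Both tumor libraries were below both control libraries for 30 members, or 60%, against 38.8% of all tested genes. They were above both for 9 members, or 18%, against 40.8%. Whether groups overlap is judged on counts normalised to library size. The 22 untested members are outside these shares, and 8 of the tested ones reached the count minimum in both control libraries and in no tumor library, so the shares describe the tested genes and not the whole set.

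**Figure D1:**
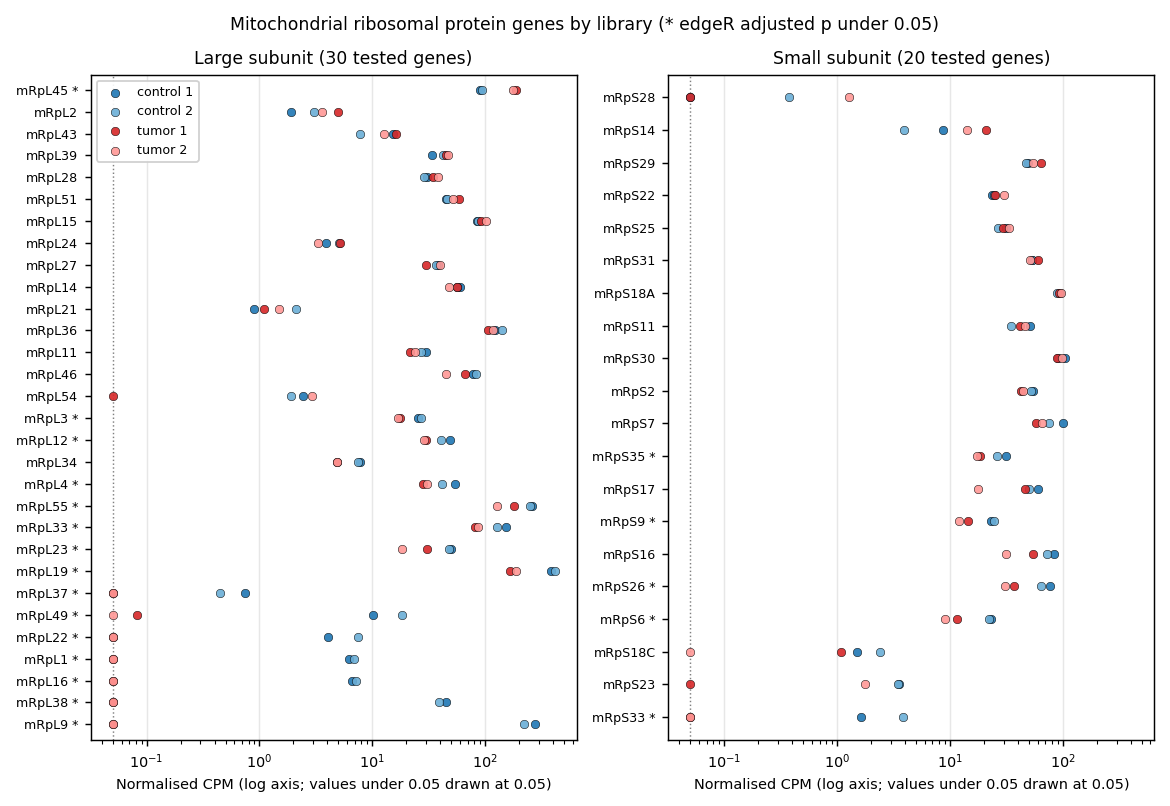
Normalised CPM (log axis) of the 50 tested mitochondrial ribosomal protein genes in each library, ordered within a subunit by log2 fold change, with values under 0.05 drawn at 0.05. Most tested members lie to the left in tumor by a small step, 7 drop to 0 in both tumor libraries, and mRpL45 alone is marked as higher; these directions are on the TMM scale, and under the cytoplasmic reference the medians are 0.07 and 0.26.

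The direction was moderate and depended on the reference used for scaling. Under the usual TMM scaling the median log2 fold change was -0.58 over the large and -0.40 over the small subunit, with 0.02 over all tested genes. When libraries were scaled on cytoplasmic ribosomal protein genes the medians were 0.07 and 0.26, with 0.67 over all genes. There 14 members (28%) were called higher and 9 (18%) lower, against 47.8% and 9.76% of all genes. With limma-trend on log2(TPM + 1), which changes the test as well as the scale, 7 (14%) were higher and 13 (26%) lower, against 31.6% and 16.1% of all genes. Relative to the median of all genes the subunit medians were -0.60 and -0.41 under TMM, and -0.56 and -0.36 in the TPM fit. A change of reference alone cannot move this gap. It was smaller, at -0.24 and -0.18, with a filter of at least 1 CPM in every library. On locus sums it was -0.23 and -0.08. Fewer members were called lower without control 1 (9, or 17%) and without control 2 (8, or 15.1%), where the share of all genes called lower was 7.62% and 9.56%.

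The 19 lower calls were of different kinds. In 7 of them both tumor libraries were at 0, and an eighth, mRpL49, had 4 and 0 counts there. The other 11 kept counts in all libraries, with log2 fold changes from -1.17 to -0.59. Locus sums moved the same way past the threshold for 9 of the 19, moved the opposite way for 4 and did not pass for 6. Over all 72 members, 9 locus sums were higher (12.5%, against 27.9% of 14670 locus sums) and 26 lower (36.1%, against 27.4%). Both tumor libraries were below both control libraries for 42 locus sums (58.3%, against 40.7%) and above for 15 (20.8%, against 40.8%). A locus sum contains the member's own count and those of its neighbours, so it tells how the locus moved and not how the member did.

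**Figure D2:**
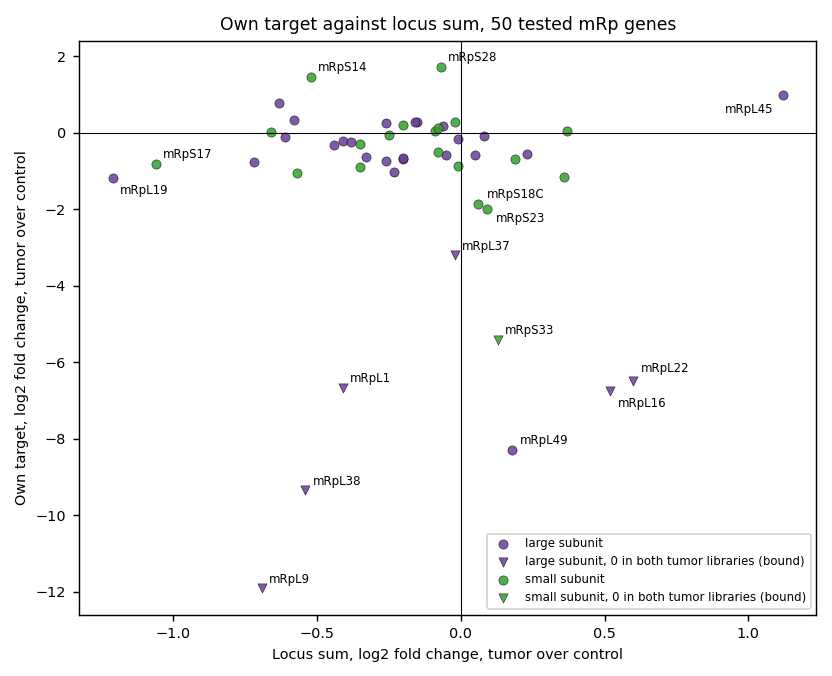
Log2 fold change of each tested member's own target (vertical axis) against that of its locus sum (horizontal axis), both tumor over control on the TMM scale; triangles are members at 0 in both tumor libraries, drawn at a bound set by 3 counts per library. The 7 triangles reach down to -11.92, while their locus sums stay between -0.69 and 0.60.

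The most abundant gene that dropped to 0 was mRpL9 (FBgn0038319, chromosome 3R, 15330738 to 15331588, plus strand). Its bacterial counterpart reaches out from the base of the large subunit. Its target went from 11099 and 10864 control counts to 0 and 0 tumor counts, so the groups were fully separated. Against a floor of 3 counts in each tumor library, which covers counting error only, this was at least 3873-fold lower (edgeR adjusted p = 0.0012). The locus sum went from 29139 and 31811 to 19725 and 20036, or -0.69 ± 0.09 on the log2 scale (fitted SE, edgeR adjusted p = 0.003). Within the locus, counts of Fkbp39, a gene for an FK506-binding protein, rose from 985 and 374 to 5825 and 6708, while Cyfip fell by 0.63 ± 0.08 on the log2 scale (edgeR adjusted p = 0.02 and 0.0063). Fkbp39 thus went from 2.23% to 31.5% of the locus as mRpL9 went from 36% to 0. Whether reads of mRpL9 were assigned to its neighbours in tumor was not tested.

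The gene mRpL38 (FBgn0030552, chromosome X, 14226289 to 14227949, plus strand) followed a similar course. In the human mitochondrial ribosome its counterpart is a mitochondria-specific protein of the central protuberance. Its control counts of 1813 and 1902 stood against 0 in both tumor libraries, at least 653-fold lower (edgeR adjusted p = 0.0016). Its locus sum fell by 0.54 ± 0.07 on the log2 scale (edgeR adjusted p = 0.002), and the neighbour CG42271 rose from 1497 and 2026 to 3347 and 3179 counts. The large-subunit genes mRpL1, mRpL16 and mRpL22 and the small-subunit gene mRpS33 had low counts in control, from 66 to 368, and 0 in tumor. In bacteria the counterparts of the first 3 form the stalk near the exiting tRNA, contact tRNA near the catalytic centre and line the exit tunnel, respectively.

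For these low genes the locus gave no common direction. Counts of mRpL16 were 269 and 347 against 0 and 0, at least 107-fold lower, but its locus sum rose by 0.52 ± 0.09 (edgeR adjusted p = 0.0067), and that locus is 79.4% arm, the beta-catenin gene, in control. For mRpL22, 162 and 368 counts against 0 and 0 gave a drop of at least 89.9-fold. Its locus sum rose by 0.60 ± 0.08 (edgeR adjusted p = 0.0025), with if, an integrin subunit gene, going from 973 and 1416 to 5563 and 4612 counts. The locus sum of mRpL1, whose own target was at least 102-fold lower, fell by 0.41 ± 0.08 (edgeR adjusted p = 0.01). Those of mRpS33 and mRpL37 did not pass the threshold, at 0.13 ± 0.08 and -0.02 ± 0.08 (edgeR adjusted p = 0.19 and 0.87). In control mRpL37 had only 30 and 22 counts. mRpL49 went from 405 and 885 to 4 and 0 counts (log2 fold change -8.29 ± 1.19, edgeR adjusted p = 0.0093), with a locus sum at 0.18 ± 0.10 (edgeR adjusted p = 0.18). The calls of mRpL49 and mRpS33 ended without control 2 (edgeR adjusted p = 0.056 and 0.068), and that of mRpL37 ended without any 1 of the 4 libraries (edgeR adjusted p up to 0.13).

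**Figure D3:**
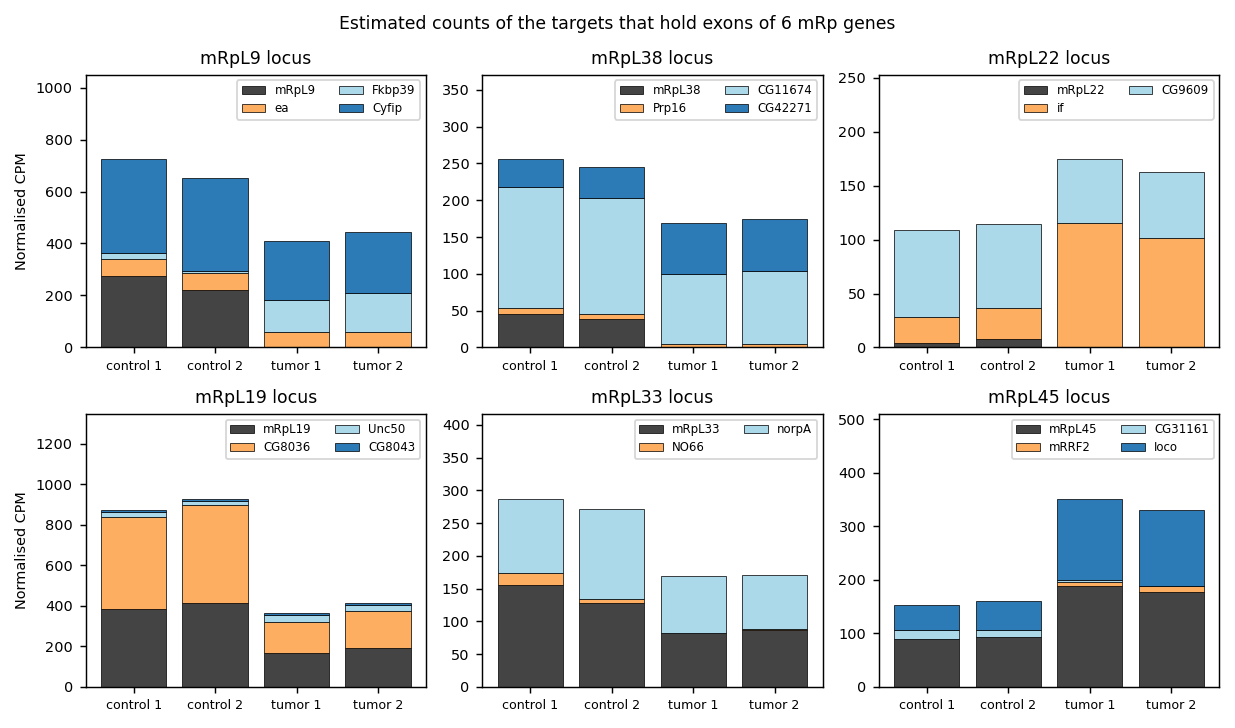
Stacked normalised CPM of every target that holds exons of mRpL9, mRpL38, mRpL22, mRpL19, mRpL33 or mRpL45, by library, with the member in dark grey and targets under 1 CPM left out. The dark part is absent from tumor for mRpL9, mRpL38 and mRpL22, whereas for mRpL19, mRpL33 and mRpL45 it keeps roughly its part of a locus that became smaller or larger.

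Among members with counts in all libraries, mRpL19 had the highest mean TPM and the lowest log2 fold change. In bacteria its counterpart sits at the interface of the subunits. The gene (FBgn0037608, chromosome 3R, 8674109 to 8675196, plus strand) went from 15540 and 20214 control counts to 8014 and 8555 tumor counts, and its TPM went from 480.3 and 507 to 234 and 287. Both tumor libraries lay below both control libraries. The log2 fold change was -1.17 ± 0.11 (edgeR adjusted p = 0.0037) and that of the locus sum -1.21 ± 0.10 (edgeR adjusted p = 7.6e-04). The call held without each of the 4 libraries (edgeR adjusted p up to 0.027) and under the cytoplasmic reference, where the log2 fold change was -0.52 (edgeR adjusted p = 0.041). Its neighbour CG8036 fell by 1.47 ± 0.12 on the log2 scale and held 51.8% of the locus in control, so the estimates of both targets fell. As the target of CG8036 holds exons of mRpL19, a fall of 1 gene and of both cannot be told apart here.

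Own target and locus also fell alike for mRpL33 (FBgn0040907, chromosome X, 4321764 to 4322231, minus strand), whose bacterial counterpart is a small protein near the exit site for tRNA. Control counts were 6234 and 6262 and tumor counts 3950 and 3873, or 155 and 128 against 81.8 and 86.1 normalised CPM, with no overlap. It fell by 0.76 ± 0.12 on the log2 scale (edgeR adjusted p = 0.011), with a locus sum at -0.72 ± 0.06 (edgeR adjusted p = 9.3e-04). Without tumor 1 its edgeR adjusted p was 0.052. Under the cytoplasmic reference its log2 fold change was -0.11, so this fall was about that of the cytoplasmic ribosomal protein genes.

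Other large-subunit genes with a modest fall encode parts of the core and the functional arms of the subunit. The gene mRpL12 encodes the stalk protein that brings translation factors to the ribosome. Control counts of 1980 and 1972 stood against tumor counts of 1437 and 1293 (log2 fold change -0.62 ± 0.16, edgeR adjusted p = 0.038). Leaving out any 1 of the 4 libraries ended its call (edgeR adjusted p up to 0.17). The genes of the early-binding proteins mRpL3 (-0.59 ± 0.15) and mRpL4 (-0.69 ± 0.18) (edgeR adjusted p = 0.038 and 0.042) likewise lost their calls without any 1 library, and the tunnel exit protein gene mRpL23 (-1.01 ± 0.29, edgeR adjusted p = 0.049) lost its call without either control library. For mRpL55, a mitochondria-specific member with control counts of 10497 and 12268 and tumor counts of 8626 and 5736, the tumor libraries lay far apart but below both control values (-0.74 ± 0.18, edgeR adjusted p = 0.034). Its call also ended without either control library (edgeR adjusted p up to 0.13). Under the cytoplasmic reference none of mRpL3, mRpL4, mRpL12, mRpL23 and mRpL55 passed, with log2 fold changes from -0.38 to 0.05.

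Of the 20 tested small-subunit genes edgeR called 5 lower and 0 higher, where 1 were higher at an unadjusted p under 0.05 and 1 by DESeq2. Over all tested genes 21.2% were lower and 23.4% higher. mRpS26, a mitochondria-specific member, went from 3071 and 3130 control counts to 1779 and 1393 tumor counts and fell by 1.05 ± 0.16 on the log2 scale (edgeR adjusted p = 0.011). Its locus sum fell by 0.57 ± 0.08 (edgeR adjusted p = 0.0032), with the call gone when control 1 was left out (edgeR adjusted p = 0.059). For mRpS6, whose bacterial counterpart lies on the platform, 936 and 1090 counts stood against 557 and 404 (log2 fold change -1.15 ± 0.22, edgeR adjusted p = 0.018). In that locus the direction was opposite, since the sum rose by 0.36 ± 0.08 (edgeR adjusted p = 0.013) with the neighbour Cip4 at 73.8% of it in control. mRpS35 showed the same contrast with -0.68 ± 0.17 for its own target and 0.19 ± 0.06 for the locus sum (edgeR adjusted p = 0.036 and 0.047). mRpS9, a head protein gene, went from 933 and 1204 to 695 and 540 counts (-0.86 ± 0.19, edgeR adjusted p = 0.027), with a locus sum at -0.01 ± 0.07. The calls of mRpS6 and mRpS9 ended without either control library, that of mRpS9 also without tumor 2, and that of mRpS35 without any 1 library. Under the cytoplasmic reference mRpS6, mRpS9, mRpS26 and mRpS35 had log2 fold changes of -0.51, -0.22, -0.41 and -0.03, and none passed.

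The only member that rose was mRpL45 (FBgn0263863, chromosome 3R, 22618492 to 22619826, plus strand). In the human mitochondrial ribosome its counterpart lies at the tunnel exit and ties the ribosome to the inner membrane. Control counts of 3610 and 4579 stood against tumor counts of 9057 and 7949, and its TPM went from 106 and 109 to 252 and 255. Both tumor libraries lay clearly above control. The log2 fold change was 0.99 ± 0.08 (edgeR adjusted p = 0.0027), it held without each of the 4 libraries (edgeR adjusted p up to 0.03), and it was 1.63 under the cytoplasmic reference. The locus sum rose by 1.12 ± 0.07 (edgeR adjusted p = 4.1e-04). Of this locus the member held 58.5% in control and 53.4% in tumor. Its neighbour loco, a regulator of G protein signalling, rose from 1874 and 2637 to 7372 and 6440 counts. Another neighbour, mRRF2, encodes a mitochondrial factor for ribosome recycling. Its target had no counts listed in control but 384 and 483 in tumor, at least 137-fold higher. It has no exon base of its own, and the target of CG31161 also holds its exons. That target went from 689 and 617 control counts to 140 and 0 tumor counts. Whether reads were assigned differently between these 2 targets was not tested.

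The other members with a positive log2 fold change did not pass the threshold, and mRpS14 and mRpS28 had fitted values above that of mRpL45. Control counts of mRpS14 were 350 and 193 and tumor counts 1004 and 638 (1.47 ± 0.48, edgeR adjusted p = 0.071). Its locus sum fell by 0.52 ± 0.08 (edgeR adjusted p = 0.0052), and 98.3% of the locus was Naa15-16 in control. Values for mRpS28 were 0 and 18 against 0 and 57 counts, too few to read. The large-subunit genes mRpL2, mRpL43, mRpL28, mRpL39 and mRpL51 had log2 fold changes from 0.27 to 0.79 (edgeR adjusted p from 0.15 to 0.53). Those of the small-subunit genes mRpS29, mRpS22, mRpS25 and mRpS31 were from 0.06 to 0.29 (edgeR adjusted p from 0.14 to 0.73). mRpS29 is the GTP-binding member known in mammals as DAP3, and its 1989 and 2315 control counts stood against 3095 and 2459 in tumor. The lowest uncalled small-subunit genes were at 0 in 1 tumor library. They were mRpS18C, with 60 and 118 against 52 and 0 counts, and mRpS23, with 141 and 170 against 0 and 79. Among the most abundant small-subunit genes, mRpS16 had 3392 and 3520 against 2608 and 1407 counts (-0.88 ± 0.30, edgeR adjusted p = 0.074) and mRpS7, for a protein of the head, 4011 and 3696 against 2825 and 2975 (-0.49 ± 0.17, edgeR adjusted p = 0.076). Both tumor values lay below both control values in each.

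Members were also split by how much of their locus their own target held, a split chosen after their values were seen. In 10 genes the own target had at least 50% of the locus sum over all libraries, namely mRpL11, mRpL12, mRpL15, mRpL36, mRpL45, mRpL55, mRpS2, mRpS18A, mRpS25 and mRpS30. Of these, mRpL45 was higher, mRpL12 and mRpL55 were lower and 7 did not pass. Over all tested genes 23.4% were higher and 21.2% lower, so this group showed no clear excess of lower calls. The share includes the tumor counts, so a fall in tumor lowers it and the group is a description only. In mRpS30, with control counts of 4192 and 4430 and tumor counts of 4323 and 4476, the groups overlapped (-0.05 ± 0.11, edgeR adjusted p = 0.76). mRpS18A had 3828 and 4309 against 4475 and 4305 counts and overlapped as well (0.04 ± 0.08, edgeR adjusted p = 0.73). mRpL36, a small zinc-binding protein gene, had 4912 and 6896 against 5153 and 5324 counts (-0.23 ± 0.11, edgeR adjusted p = 0.16).

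Large and small subunit were then compared by their summed TPM. The 47 large-subunit genes summed to 2569.6 and 2452 TPM in control and to 1855 and 1906 in tumor. Both tumor sums were below both control sums. The 25 small-subunit genes summed to 1075 and 922 in control and to 983 and 969 in tumor, where the groups overlapped. The ratio of large to small was 2.39 and 2.66 in control and 1.89 and 1.97 in tumor. Since a TPM here is per base of a target that is mostly flanking sequence, these sums rank libraries and do not give subunit amounts. Part of the difference lay in genes at 0 in tumor. Over tested large-subunit genes without them the sum was 2137 and 2097 for control and 1854 and 1906 for tumor. Without mRpL19 as well, a choice made after the values were seen, it was 1657 and 1589.5 for control and 1620.0 and 1618 for tumor, and the groups overlapped. The ratio to the 19 tested small-subunit genes without a group at 0 was then 1.54 and 1.73 in control and 1.65 and 1.67 in tumor. These overlapped as well. The trimmed sums keep mRpL45, the only member called higher, with TPM of 106 and 109 in control and 252 and 255 in tumor. Sums without it were not computed, so the overlap holds for this choice of genes only.

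**Figure D4:**
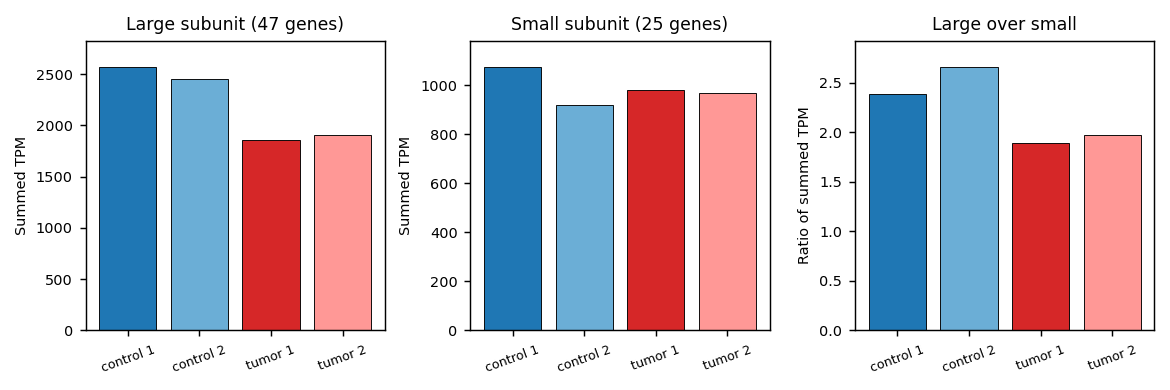
Summed TPM of the 47 large-subunit and 25 small-subunit genes, and the ratio of the sums, in each library. The large-subunit sum is lower in both tumor libraries, at 1855 and 1906 against 2569.6 and 2452, while the small-subunit sums overlap between groups.

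Per gene, 14 of 30 tested large-subunit genes were lower and 1 higher, and 5 of 20 tested small-subunit genes were lower. Over all tested genes the shares were 21.2% lower and 23.4% higher. The subunit medians of -0.58 and -0.40 differed by -0.19. This is within the spread between replicates, which was 0.24 for the same difference (SD within groups). When mRpS18A and mRpS30, which carry small-subunit names but lie in the large subunit of the human mitochondrial ribosome, were counted as large subunit, the difference was 0.03. Among tested genes without a group at 0, the medians were -0.27 for 24 large-subunit and -0.30 for 19 small-subunit genes. On locus sums, 21 of 47 large-subunit loci were lower and 5 higher, against 5 lower and 4 higher of 25 small-subunit loci. The subunit medians there were -0.23 and -0.08. Over all locus sums the shares were 27.4% lower and 27.9% higher. No test of the subunits against each other was made, since genes are not replicates. By family, the medians were -0.59 over 31 tested genes with bacterial counterparts and -0.54 over 19 tested mitochondria-specific genes. Called lower were 12 and 7 of them, where the share over all tested genes was 21.2%.

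Not every protein of this ribosome carries an mRp symbol, and both older-named genes of the small subunit showed no fall of their own target. The gene tko encodes the decoding centre protein S12, and its mutants are known for seizures after mechanical shock. It rose from 2019 and 2186 counts to 3865 and 4183 (log2 fold change 0.86 ± 0.13, edgeR adjusted p = 0.0099). The locus sum rose by 1.09 (edgeR adjusted p = 1.0e-03), and the tko call ended without control 2 (edgeR adjusted p = 0.052). The gene bonsai, for protein S15, had 1005 and 1136 against 1613 and 1511 counts (0.47 ± 0.14, edgeR adjusted p = 0.052). Its locus sum fell by 1.52 (edgeR adjusted p = 3.1e-04), but bonsai held only 2.71% of that sum in control. The sum includes the cytoplasmic ribosomal protein gene RpS24, with 22625 and 26360 control counts against 4814 and 4768 tumor counts. As for the ribosomal RNAs, mt:lrRNA was listed at 0 in all libraries. Counts of mt:srRNA were 157 and 354 against 66 and 13 (-2.75 ± 0.91, edgeR adjusted p = 0.071). The mitochondrial genes lie so close that all 15 share their targets, and 9 of them were listed at 0.

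Genes that work with the mitochondrial ribosome were called in both directions, as were all tested genes, with 23.4% higher and 21.2% lower. The lists are small, so most counts below cannot be told from these shares. Among 8 tested translation factors 2 were higher and 1 lower. The elongation factor gene mEFTu1 fell from 9278 and 10410 to 7485 and 5866 counts (-0.64 ± 0.12, edgeR adjusted p = 0.016), and was at 0.00 under the cytoplasmic reference. Both recycling factor genes were listed at 0 in control. mRRF1 had 609 and 1130 counts in tumor, at least 277-fold higher, yet its locus sum fell by 0.61 (edgeR adjusted p = 0.033). Of 7 tested genes for mitochondrial RNA processing and stability 1 was higher and 2 lower, and the lower ones were bsf (-0.48 ± 0.10) and mTerf5 (-0.52 ± 0.13), with edgeR adjusted p = 0.02 and 0.039. Of 5 tested genes for maintenance and transcription of the mitochondrial genome 1 was higher and 3 lower, among them PolrMT, for the mitochondrial RNA polymerase, with 3722 and 4722 against 3022 and 2695 counts (-0.63 ± 0.09, edgeR adjusted p = 0.0082). Under the cytoplasmic reference bsf, mTerf5 and PolrMT were at 0.17, 0.14 and 0.02. In the import list 3 of 11 fell, with a median of -0.17.

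Regulators of nuclear genes for mitochondria were mostly lower. Of 5 genes 4 fell, and on locus sums 4 fell as well. Over all tested genes 21.2% were lower, and over all locus sums 27.4%. The PGC-1 homolog srl, a coactivator of mitochondrial genes, went from 13338 and 14035 control counts to 6585 and 6173 tumor counts. It fell by 1.18 ± 0.10 on the log2 scale (edgeR adjusted p = 0.0033), with a locus sum at -0.78. The genes ERR, for a nuclear receptor, Myc, for a growth regulator, and ewg, for a homolog of NRF-1, had log2 fold changes of -0.71 ± 0.09, -0.70 ± 0.17 and -0.69 ± 0.14 (edgeR adjusted p = 0.0068, 0.032 and 0.022). Under the cytoplasmic reference ERR, Myc and ewg did not pass, at -0.07, -0.06 and -0.04, while srl did, at -0.53 (edgeR adjusted p = 0.022). The call of Myc ended without control 1, control 2 or tumor 2, and that of ewg without control 2, tumor 1 or tumor 2. The ETS factor gene Ets97D did not pass (0.20).

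Cytoplasmic ribosomal protein genes were set beside the members. Over all genes 21.2% were lower and 23.4% higher on own targets, and 27.4% and 27.9% on locus sums. Of 86 genes 50 were tested, with 31 lower, 3 higher and a median of -0.65. On locus sums 80 of 85 were lower and 2 higher, with a median of -0.62. The corresponding numbers for the loci of the 72 members were 26 lower and 9 higher, with a median of -0.20. In 54 of the 72 the own target held under 25% of the locus sum. Among the neighbours in these sums are cytoplasmic ribosomal protein genes. The contrast on locus sums is thus one of loci and not of the 2 ribosomes. On own targets the members lay closer to the cytoplasmic genes in the median, at -0.56, with 19 of 50 lower. Without the 7 members at 0 in both tumor libraries, 12 of 43 were lower and the median was -0.30. The cytoplasmic list was not trimmed alike. Nuclear genes of the respiratory chain and ATP synthase had 43 of 81 locus sums lower, 11 higher and a median of -0.29. On own targets 19 of 50 of these were lower, as many as of the members, and 3 higher, with a median of -0.35. The 3 lists were compared by counts and medians alone. Within the cytoplasmic list RpL34a fell by 1.18 ± 0.08 and RpL37A by 1.08 ± 0.10, whereas RpL35 was higher on its own target (1.00 ± 0.08) and lower on its locus sum (-0.48).

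**Figure D5:**
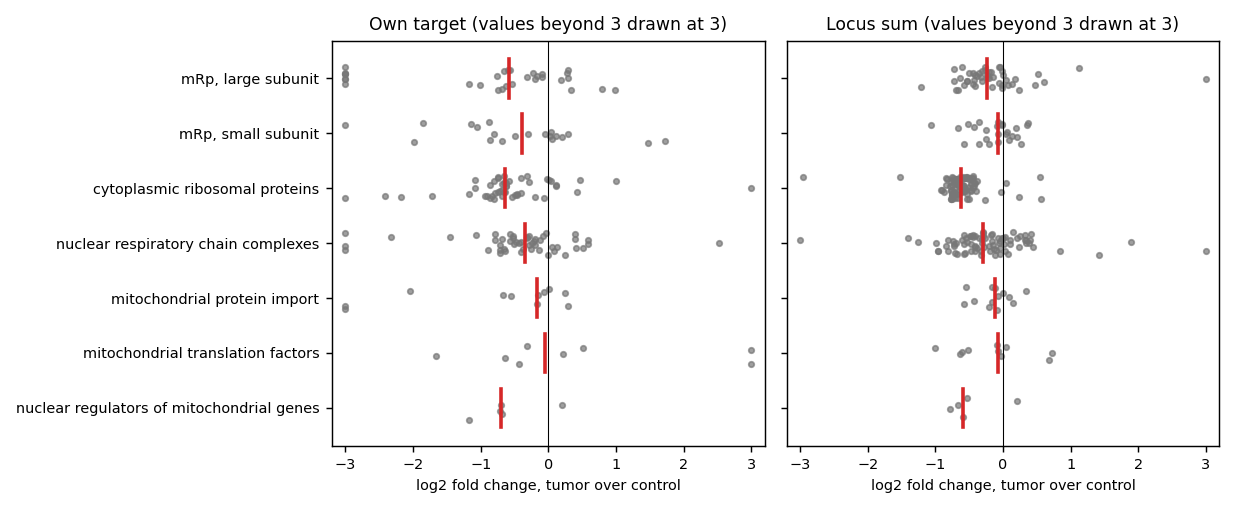
Log2 fold change, tumor over control on the TMM scale, of each tested gene (grey) with the median (red) for 7 lists, on own targets (left) and locus sums (right), with values beyond 3 drawn at 3. On locus sums, which include the counts of neighbours, the loci of cytoplasmic ribosomal protein genes gather around -0.62. Those of the large- and small-subunit mitochondrial genes spread around -0.23 and -0.08.

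Marker RNA of several cell types differed between the groups as well. For the counts below, the shares over all genes were 23.4% higher and 21.2% lower on own targets. On locus sums they were 27.9% and 27.4%. Of 11 germline markers 10 were lower in tumor, and their summed TPM was 658 and 691 in control against 215 and 242 in tumor. Yolk and eggshell markers summed to 7824 and 3207 against 236 and 216, with 7 of 10 tested lower and Vm26Aa and Vm26Ab at 0 in all libraries. Hemocyte markers summed to 228 and 174 against 393 and 484, with 5 of 10 higher, and follicle cell markers to 624 and 725 against 811 and 883, with 4 of 11 higher and 2 lower. Muscle markers summed to 112 and 192 against 81.5 and 54.3, with 4 of 9 tested lower. These are own targets, and 5 of 11 germline and 11 of 13 yolk and eggshell markers had no exon base of their own. On locus sums 9 of 11 germline markers were lower, with a median log2 fold change of -0.87 against -4.52 on own targets. There 12 of 13 yolk and eggshell markers were lower. Hemocyte markers were 7 higher and 2 lower of 10, follicle cell markers 4 and 2 of 11, and muscle markers 1 and 6 of 10. The part of these shifts in the member values was not tested. In these bulk libraries fewer cells of a type and less RNA per cell cannot be told apart.

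One locus sum includes Ras85D, whose counts here may come from the transgene or from the fly's own gene, which cannot be told apart. mRpL47 (FBgn0014023, chromosome 3R, 9514822 to 9515908, minus strand) was listed at 0 in all libraries, and Ras85D is among the targets that hold its exons. Its locus sum went from 8256 and 9304 to 117352 and 125373 counts (log2 fold change 3.72 ± 0.12, edgeR adjusted p = 1.0e-04), and Ras85D made up 5.07% of it in control and 87.2% in tumor. Of the other targets there, Rlb1 rose from 2851 and 3427 to 10354 and 11762 counts and CG8176 fell by 0.30 ± 0.07 on the log2 scale (edgeR adjusted p = 0.0023 and 0.031). The target of Rlb1 also holds exons of Ras85D, and whether its counts include reads of Ras85D was not tested. The locus sum change of mRpL47 is the highest among the 72 members.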

How the data were processed

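All 4 libraries were used, with group and replicate number from the sample titles. Per the submitters' processing notes the authors quantified reads with kallisto; the sources used here do not give its version, index, build or strand option. The deposited columns, per the file headers, are target length, effective length, estimated counts and TPM for each gene, as the authors made them, 1 file per library. Symbols were matched for 17668 of 17773 identifiers. Coordinates and exons come from Ensembl release 115 (BDGP6.54), where 17551 targets equal the gene span plus 4000 bases. The deposited estimated counts, rounded to whole numbers, entered edgeR 4.0.16 under R 4.3.3 (filterByExpr with a minimum of 10 counts in 2 libraries and 15 in all, TMM, glmQLFit and glmQLFTest on group, two-sided, Benjamini-Hochberg adjustment over all tested genes, threshold 0.05). With 2 residual degrees of freedom the spread is shared across genes, and its biological coefficient of variation was 0.36. P-values measure the spread between these libraries. Errors are SEs of the fit. Estimates under 0.5 count as 0, and the floor for bounds is 3 counts per library. Locus sums were fitted with the library sizes and TMM factors of the gene fit. Alternatives were other scalings, filters, DESeq2 1.42.0, limma-voom and limma-trend (limma 3.58.1) on log2 TPM after adding 1, 0.1 or 5, a replicate block, leaving out each library and locus sums. On counts simulated with the dispersions of these libraries, the fit returned the set fold changes in the median, but more of its calls were false than the threshold states, so single calls near it are weak. Joins and figures used Python 3.11.15, numpy 2.4.6, pandas 2.3.3 and matplotlib 3.10.9.

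The members, gene lists and tests were chosen with earlier results of these data known. Members named in full were the 6 highest and 6 lowest log2 fold changes and the 4 highest mean TPM values in each subunit, and every untested member. Further genes are tko, bonsai, both mitochondrial ribosomal RNAs, 3 genes that check the labels, and up to 4 called genes per list with the smallest adjusted p. Neighbours of members, and the members mRpL3, mRpL4, mRpL12, mRpL23, mRpL33, mRpL37, mRpS9 and mRpS35, the 10 genes with most of their locus, PolG2, GatC and Vm26Aa and Vm26Ab were named after their values were seen. Of genes named in the lists, those without a matching symbol were not analysed here. One neighbour of a member is not reported here.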

Additional observations from a re-analysis of the deposited data

How the results depend on the processing

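The number of members called higher was 1 with scaling by library totals, upper quartiles or DESeq2, without a filter and without each library. It was 2 with the stricter filter, DESeq2, limma-voom and the replicate block, 7, 7 and 6 on log2(TPM + 1), log2(TPM + 0.1) and log2(TPM + 5), 9 on locus sums and 14 under the cytoplasmic reference. Members called lower were 9 under the cytoplasmic reference, 12 with the stricter filter and on log2(TPM + 5), and 8 to 17 without 1 library; other alternatives gave 13 to 26. The large- and small-subunit medians were 0.07 and 0.26 under the cytoplasmic reference, -0.23 and -0.17 with the stricter filter, which tests fewer genes, -0.35 and -0.14, -0.36 and -0.15, and -0.22 and -0.14 on the 3 TPM scales, and -0.23 and -0.08 on locus sums. Their difference ran from -0.36 to -0.06 under these settings, and was 0.03 with mRpS18A and mRpS30 moved. The cause of these shifts was not tested.

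Samples of equal replicate number did not deviate together (r = -0.01 across genes, 2 pairs), so the numbers are not read as pairs. With the replicate block 13 members were lower and 2 higher, and 13 of the 20 calls remained. Of the 20 calls, 7 remained without each library in turn.

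On locus sums the sign was opposite to the own target for 24 of the 50 tested members. These were mRpL16 (0.52), mRpL22 (0.60), mRpL24 (0.08), mRpL46 (0.23), mRpL49 (0.18), mRpL54 (0.05), mRpS6 (0.36), mRpS18C (0.06), mRpS23 (0.09), mRpS33 (0.13) and mRpS35 (0.19) with a positive locus sum. Those with a negative one were mRpL2 (-0.63), mRpL15 (-0.06), mRpL28 (-0.15), mRpL39 (-0.16), mRpL43 (-0.58), mRpL51 (-0.26), mRpS11 (-0.66), mRpS14 (-0.52), mRpS18A (-0.09), mRpS22 (-0.20), mRpS25 (-0.08), mRpS28 (-0.07) and mRpS29 (-0.02). Outside the members it was opposite for the named genes bonsai (-1.52), mRRF1 (-0.61), PolG2 (0.26), mtSSB (0.13), TFAM (-0.34), Tim8 (0.34), mt:ND3 (-1.16), RpL35 (-0.48) and ND-13B (-0.38).

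The cytoplasmic reference adds nearly the same amount to every gene with counts in both groups, and it took 13 members with small negative values above 0, namely mRpL3 (0.05), mRpL11 (0.34), mRpL12 (0.03), mRpL14 (0.47), mRpL21 (0.46), mRpL24 (0.54), mRpL27 (0.56), mRpL36 (0.42), mRpL46 (0.09), mRpL54 (0.15), mRpS2 (0.35), mRpS7 (0.16) and mRpS30 (0.61). Of the other named genes, mEFTu1 came to 0.00, bsf to 0.17, mTerf5 to 0.14, PolrMT to 0.02 and Tom40 to 0.10. With library totals mRpL24, mRpL27 and mRpS30 were at 0.01, 0.00 and 0.05, and with upper quartiles mRpS11, mRpS18A and mRpS31 were at -0.08, -0.07 and -0.05. After adding 1, 0.1 and 5 to TPM, the values were 0.07, 0.07 and 0.06 for mRpL14, 0.06, 0.13 and 0.02 for mRpL21, 0.12, 0.13 and 0.08 for mRpL24, 0.13, 0.13 and 0.12 for mRpL27, 0.02 each time for mRpL36, and 0.20, 0.20 and 0.19 for mRpS30. Leaving out 1 library turned the sign of uncalled members, with ranges of -0.69 to 0.54 for mRpL21, -0.46 to 0.20 for mRpL24, -0.31 to 0.07 for mRpL27, -0.07 to 0.90 for mRpL43, -9.64 to 0.41 for mRpL54, -0.22 to 0.33 for mRpS11, -0.02 to 0.09 for mRpS18A, -6.12 to 7.82 for mRpS28, -0.14 to 0.05 for mRpS30 and -0.08 to 0.18 for mRpS31. Depth limits the members with under 100 counts, such as mRpL37 and mRpS28.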

Other observations

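Several members lie beside other genes for mitochondria, so that their targets share exons. Such neighbours, chosen after the loci were seen, are mRRF2 beside mRpL45, the ATP synthase gene ATPsynD beside mRpL55, and PolG2, for a subunit of the mitochondrial DNA polymerase, beside mRpS23. The target of PolG2 had 189 and 560 counts in control and 0 in both tumor libraries, and its neighbour GatC had the same estimates in every library. The target of ATPsynD had 1943 and 2351 against 1182 and 2236, which did not pass the threshold. The 4 members called lower whose locus sums were called higher were mRpL16, mRpL22, mRpS6 and mRpS35.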
